A study of Mus musculus with 42 samples.

Results

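The Il6 locus is described here by ChIP-seq of RNA polymerase II (Pol II) and of H3K27 acetylation (H3K27ac), a histone mark of active promoters and enhancers, in mouse bone marrow-derived macrophages (BMDMs) with and without Nur77. It holds 1 of the 21897 protein-coding genes measured, together with the regions of enrichment that lie within 100 kb of it: 19 of 70858 Pol II regions and 15 of 65215 H3K27ac regions. Il6 was picked because its Pol II and H3K27ac signals had already been seen to differ between the genotypes in opposite directions early and late after lipopolysaccharide (LPS). Its own windows are therefore described with no test. Tests are given only for regions outside those windows, for the neighbouring genes and for genes of the IL-6 pathway. The 5 regions with the highest mean signal were to be described for each antibody, and the others that are named were chosen after their values had been seen.

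The series holds 42 libraries, of which 36 are ChIP libraries and 6 are inputs (sonicated chromatin that was not immunoprecipitated, 1 per genotype and time). BMDMs were grown for 7 days in L929-conditioned medium from the marrow of male mice of the C57Bl6/J strain aged 6 to 12 weeks and received 100 ng/ml LPS. For each antibody there were 6 groups of 3 libraries, which are wild-type (WT) and knockout (KO) BMDMs that were untreated (0 h) or collected after 1 h or 18 h of LPS. KO mice lacked Nur77 (gene Nr4a1, an orphan nuclear receptor) in the whole body after a CMV-driven Cre had removed loxP-flanked Nr4a1, with WT littermates as controls. Per the study's methods, Nur77-deficient mice without Cre expression were then bred and used as the KO mice. The genotype field of the KO libraries reads only "cre", so the word KO in their titles set their group. The deletion was in place before LPS was given and during differentiation as well. The study's methods call the libraries of a group biological replicates without naming the mouse of each, and p-values measure the spread between these libraries. In chromatin from a whole culture, a change in the share of cells that carry a signal and a change in the signal per cell cannot be told apart.

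IL-6 is a secreted cytokine that macrophages make when Toll-like receptors sense bacterial products such as LPS. It binds the IL-6 receptor and the shared chain gp130, and the Janus kinases bound to gp130 then activate the transcription factor STAT3. In resting macrophages the gene is nearly silent, and its induction by LPS is known to need NF-kB, C/EBP and AP-1 factors at its promoter together with chromatin changes that other early LPS genes need less.

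Il6 (ENSMUSG00000025746) lies on the plus strand at chr5:30013114-30019981 (mm10, the GRCm38 build) and has 5 exons. The 250 bases before its start are shown because they hold the motifs that promoter factors of this gene are known to use, and capitals mark matches to motifs found by a search of both strands. The next 3 sequences come from the centres of the upstream H3K27ac regions at -92.3 kb and -64.4 kb, named by the distance of their centre from the Il6 start, whose mean tags differed most between the genotypes after 18 h of LPS. All are plus-strand sequence of GRCm38.p6 from RefSeq.
Il6 promoter, chr5:30012864-30013113: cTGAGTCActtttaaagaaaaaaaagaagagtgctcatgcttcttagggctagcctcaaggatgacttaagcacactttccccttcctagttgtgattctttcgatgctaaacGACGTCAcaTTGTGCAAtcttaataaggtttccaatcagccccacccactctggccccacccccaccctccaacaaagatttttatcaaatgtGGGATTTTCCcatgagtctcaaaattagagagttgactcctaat
-92.3 kb region, chr5:29920955-29921001: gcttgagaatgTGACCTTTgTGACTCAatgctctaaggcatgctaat
-92.3 kb region, chr5:29921375-29921421: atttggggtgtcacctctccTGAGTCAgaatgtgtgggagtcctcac
-64.4 kb region, chr5:29948764-29948810: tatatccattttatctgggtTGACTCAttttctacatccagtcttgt

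The Il6 promoter held 1 AP-1 motif (TGANTCA) from position -249 to -243, counted from the gene start, 1 CRE (GACGTCA) from -137 to -131, 1 C/EBP motif (TTGCNNAA, on the minus strand) from -128 to -121, and 1 NF-kB motif (GGG, any 2 bases, TTTCC) from -44 to -35. None of these 4 matches overlapped another. Of 32817 promoter windows of this length, 6.75% held the AP-1 letters, 2.78% the CRE, 9.57% the C/EBP motif and 1.41% the NF-kB motif. The NBRE (AAAGGTCA), the sequence that Nur77 is known to bind as a monomer, was not found in this window and occurred in 1.34% of promoters. In the central 2000 bases of the -92.3 kb region, 1 NBRE on the minus strand lay 1 base from an AP-1 motif, without overlap, and another AP-1 motif lay further on. Of 65177 H3K27ac regions, 5.48% held both motifs in their central 2000 bases, and 0.101% held them at most 10 bases apart. The -64.4 kb region held 1 AP-1 motif, which 52.7% of regions did. None of the 5 motifs was found in the same window of the -42.0 kb region. These are matches of letters, and Nur77 binding was not measured in the libraries used here.

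Signal is given as normalized tags, sequencing reads scaled to 10 M per library, summed over a window from 500 bp before the gene to 500 bp past its end for Pol II and within 2500 bp of the gene start for H3K27ac. ChIP libraries held 13.5 to 55.4 M tags for H3K27ac and 21.7 to 36.1 M for Pol II, and a region had to reach 4.88 to 8.14 normalized tags per search window for H3K27ac and 5.11 to 6.03 for Pol II, so a weaker signal is listed as 0. H3K27ac libraries were deeper in KO (23.6 to 55.4 M) than in WT (13.5 to 31.1 M), and at 18 h the value a region had to reach was 4.88 to 5.43 in KO and 5.46 to 7.98 in WT. All 6 macrophage markers were found in every group with both antibodies, with summed Pol II tags of 16623 to 43711, whereas Ly6g, Mpo, Cd3e, Pax5 and Col1a1, markers of other marrow cells, were at 0 in all groups. The 11 other-cell markers differed between the genotypes. Before LPS they summed to 171 to 191 Pol II tags in KO and 138 to 162 in WT, and to 134 to 147 H3K27ac tags in KO and 33.0 to 54.9 in WT. At 1 h their Pol II sums were 78.9 to 92.9 in KO and 48.5 to 57.5 in WT, and their H3K27ac sums 105 to 124 and 49.2 to 79.4. At 18 h their Pol II sums were 96.3 to 106 in KO and 120 to 143 in WT, and their H3K27ac sums 15.9 to 99.9 and 8.74 to 15.6. The summed Pol II tags of the macrophage markers were 23770 to 24215 in KO and 32237 to 34238 in WT at 1 h, and 35631 to 38491 and 41244 to 43711 at 18 h, when their summed H3K27ac tags were 4316 to 5781 in KO and 6209 to 6432 in WT. The part of these differences in the results at Il6 was not tested. Over Nr4a1, Pol II in untreated cells was 189, 188 and 208 tags in the 3 WT libraries and 87.8, 76.1 and 70.2 in the 3 KO libraries, a difference of -1.22 (SE 0.17, limma adjusted p = 0.000125) on the log2(tags + 10) scale. After 1 h it was 25.5, 23.0 and 30.4 tags in WT and 33.5, 39.0 and 36.6 in KO (log2 difference 0.36, adjusted p = 0.0892), and after 18 h 7.46, 5.98 and 0 in WT and 0 in every KO library. The position of the deleted piece is not given in the sources used here, so whether signal in this window tests the genotype was not tested. H3K27ac replicate 1 of KO at 1 h and at 18 h stood apart. Its correlation with the other libraries of its group was 0.906 and 0.909 at 1 h and 0.912 and 0.911 at 18 h, against 0.996 and 0.995 between those others and at least 0.989 in every other group. H3K27ac results in KO are therefore also given without it where it matters.

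In WT BMDMs, Pol II filled the Il6 gene 1 h after LPS and had largely left it by 18 h, whereas in KO BMDMs it was lower at 1 h and higher at 18 h than in WT. No Pol II region was found over Il6 in any of the 6 untreated libraries. At 1 h the window held 376, 397 and 390 normalized tags in WT (388 ± 10.6, SD, n = 3) and 320, 279 and 297 in KO (298 ± 20.3), so that all 3 KO libraries lay below all 3 WT libraries. At 18 h it held 104, 122 and 107 tags in WT (111 ± 9.70) and 457, 410 and 408 in KO (425 ± 27.8), and every KO library lay above every WT library. The difference KO minus WT was -0.37 at 1 h and 1.85 at 18 h (SE 0.095 each, on the log2(tags + 10) scale), and the mean tags at 18 h were 3.84-fold higher in KO. From 1 h to 18 h the WT level dropped by 1.72 on this scale (3.50-fold in mean tags), and the KO level rose by 0.50 (1.42-fold in mean tags). These changes differed by 2.22 (SE 0.13). In the order of these levels, KO at 18 h stood highest, followed by WT at 1 h, KO at 1 h and WT at 18 h, and no neighbouring pair of these groups overlapped. The top place rests on the scaling. With median centring KO minus WT was -0.63 at 1 h and KO rose by only 0.0024 to 18 h, so WT at 1 h stood highest. With quantile normalization it did as well (-0.44 and 0.12).

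**Figure D1:**
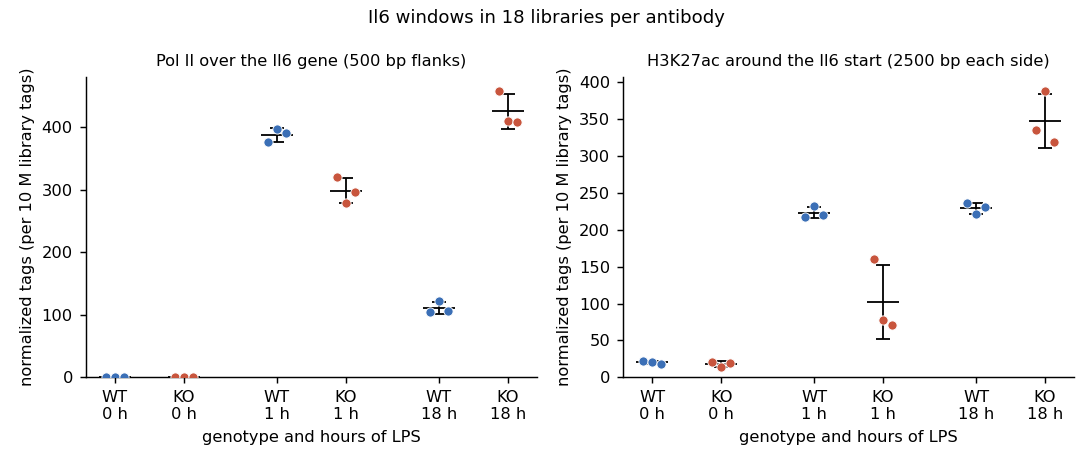
Normalized tags (per 10 M) over the Il6 windows for Pol II and H3K27ac at 0, 1 and 18 h of LPS. Points are single libraries (WT blue, KO red), horizontal lines the mean and error bars the SD of 3 libraries. Pol II in KO at 18 h (408 to 457 tags) lies above every WT library, and H3K27ac replicate 1 of KO at 1 h (160 tags) lies above the other 2 of its group.

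Other genes moved as well, and Il6 is placed among them in the same units. Across all genes the median Pol II difference KO minus WT was 0.24 at 1 h and -0.10 at 18 h, so Il6 went against the median at both times. At 1 h Il6 stood at rank 852 from the lowest of 12079 genes, and at 18 h 34 from the highest of 12806. When all genes were ordered by Pol II tags per kb of window, Il6 stood at rank 1170 in WT at 1 h and 5035 in WT at 18 h, against 1675 and 1249 in KO. Its density was 49.3 and 14.1 tags per kb in WT and 37.9 and 54.0 in KO. With each library centred on its median, the 1 h difference was -0.63 and the KO level at 18 h was the same as at 1 h (log2 difference 0.0024). The rise within KO from 1 h to 18 h thus rests on the scaling of the libraries, while the direction of the genotype difference at each time was the same under every scaling tried. Of 11742 genes tested at both times, 120 (1.02%) were called lower in KO at 1 h and higher in KO at 18 h at an adjusted p under 0.05. Il6 is in this count through the values that chose it, so its place there is no test of Il6. Stat3, Tnf and the macrophage marker Mertk were the other listed genes among them. With H3K27ac 11 of 11251 genes (0.0978%) were called in this way, and none of the other listed genes was among them.

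The extent of Pol II along the gene differed in the same order. In WT at 1 h a single Pol II region covered the whole gene in each library and ran 3.75 to 4.22 kb past its annotated end, and at 18 h it had broken into 2 or 3 regions that covered 58.0% to 82.3% of the gene. In KO at 18 h a single region covered all of the gene, began 1.40 to 1.94 kb before its start and ran 4.93 to 6.49 kb past its end. The regions over Il6 were 12.1 ± 0.610 kb long in WT at 1 h, 8.38 ± 1.46 kb in WT at 18 h, 11.5 ± 0.438 kb in KO at 1 h and 14.2 ± 1.04 kb in KO at 18 h. At 18 h each KO library had a longer stretch and a later end than each WT library.

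H3K27ac at the Il6 start was low before LPS and lower in KO than in WT at 1 h, but at 18 h it was higher in KO. The untreated libraries held 22.5, 20.3 and 17.8 normalized tags in WT (20.2 ± 2.35) and 21.1, 14.3 and 18.7 in KO (18.0 ± 3.45), and the groups overlapped. At 1 h the values were 218, 232 and 220 in WT (223 ± 7.49) and 160, 77.0 and 70.5 in KO (103 ± 50.0). The 3 KO libraries all lay below WT, with replicate 1 of KO nearest to it. At 18 h the values were 236, 221 and 231 in WT (229 ± 7.30) and 335, 388 and 319 in KO (347 ± 36.5), again without overlap and now with KO above. The log2 difference KO minus WT was -0.11 at 0 h, -1.14 at 1 h and 0.57 at 18 h (SE 0.21 each), the last of these with 1.51-fold higher mean tags. Without replicate 1 of KO at 1 h, the 1 h difference was -1.48.

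Within 2500 bp of the start the mark had reached its late WT level already at 1 h, while in KO it kept rising. Relative to 0 h, WT levels were higher by 2.95 at 1 h and 2.99 at 18 h on the log2(tags + 10) scale, and KO levels by 1.93 and 3.67. In WT, Pol II thus dropped between 1 h and 18 h at a level of H3K27ac in this window whose values at the 2 times overlapped. The likeness of the 2 WT times depended on the window. The whole acetylated region over Il6 held 226 tags in WT at 1 h and 269 at 18 h, without overlap. Within 1000 bp of the start, WT was above 0 h by 2.26 at 1 h and 1.97 at 18 h. In KO at 18 h the acetylated stretch at Il6 was 9.93 ± 3.06 kb long, against 4.66 ± 0.293 kb in WT, and held 555 to 901 tags against 243 to 257. Replicate 1 was the longest of the KO libraries at 13.5 kb, and the other 2 measured 8.14 and 8.19 kb, still longer than any WT library. In KO at 1 h the stretch was 2.51 ± 0.571 kb, against 3.32 ± 0.212 kb in WT, and replicate 1 of KO overlapped WT. Input chromatin also held some signal over Il6, with a median of 22.1 tags (5.89 to 52.5) in the Pol II window and of 27.6 (0 to 53.3) in the H3K27ac window. The H3K27ac level of untreated cells was thus within the range of the inputs, and no call is made from it.

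Outside the Il6 windows, the 3 H3K27ac regions at -92.3, -64.4 and -42.0 kb upstream of the gene were higher in KO than in WT at 18 h, and no downstream region was called for genotype. A region was called when its limma adjusted p, over all regions of the antibody, was under 0.05 and its log2 difference was over 1 in size. Of the 8 H3K27ac regions tested for the genotype at 1 h, 3 were lower in KO and 0 higher (4.43% and 9.64% of all regions tested), and at 18 h 4 of 8 were higher and 0 lower (2.62% and 1.12%). At an unadjusted p under 0.05 the limma test gave 1 higher at 1 h and 0 lower at 18 h. Before LPS, 0 of 4 tested regions differed in the limma test, 0 of them also at an unadjusted p under 0.05 (1.85% of all regions were called). The change from 1 h to 18 h differed between the genotypes, toward KO, in 4 of 8 regions (3.44% of all regions). All 4 lie upstream of Il6, at -92.3, -64.4, -42.0 and -19.2 kb. A region could be tested when it was found in 1 of the groups only, and the direction of its difference was then fixed in advance. The values at -42.0 kb at 1 h and at -19.2 kb at 18 h, where 1 group was at 0 throughout, are therefore given as levels with no test. WT was also at 0 at 18 h at -77.1 and +27 kb, which were not called. The counts above give no support. When a region had to be found in every library compared, the 3 calls at -92.3, -64.4 and -42.0 kb held at 18 h (adjusted p = 0.00691, 0.000218 and 0.00191), and the regions lower in KO at 1 h could not be tested. In WT the upstream regions differed among themselves from 1 h to 18 h, as the regions at -92.3 and -42.0 kb rose by 1.37 and 1.09 and those at -64.4 and -19.2 kb fell (-1.74 and -1.79). The upstream region at -77.1 kb was not called for genotype at any time with all libraries. Without replicate 1 of all groups it differed by -1.50 at 1 h and 1.24 at 18 h. KO at 1 h and WT at 18 h were then at 0 throughout, so these values are also given with no test. The 3 downstream regions at +23.2, +27 and +60.1 kb were not called for genotype at any time. Of the 15 H3K27ac regions, 6 were found only in replicate 1 of KO at 18 h and were not tested.

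**Figure D2:**
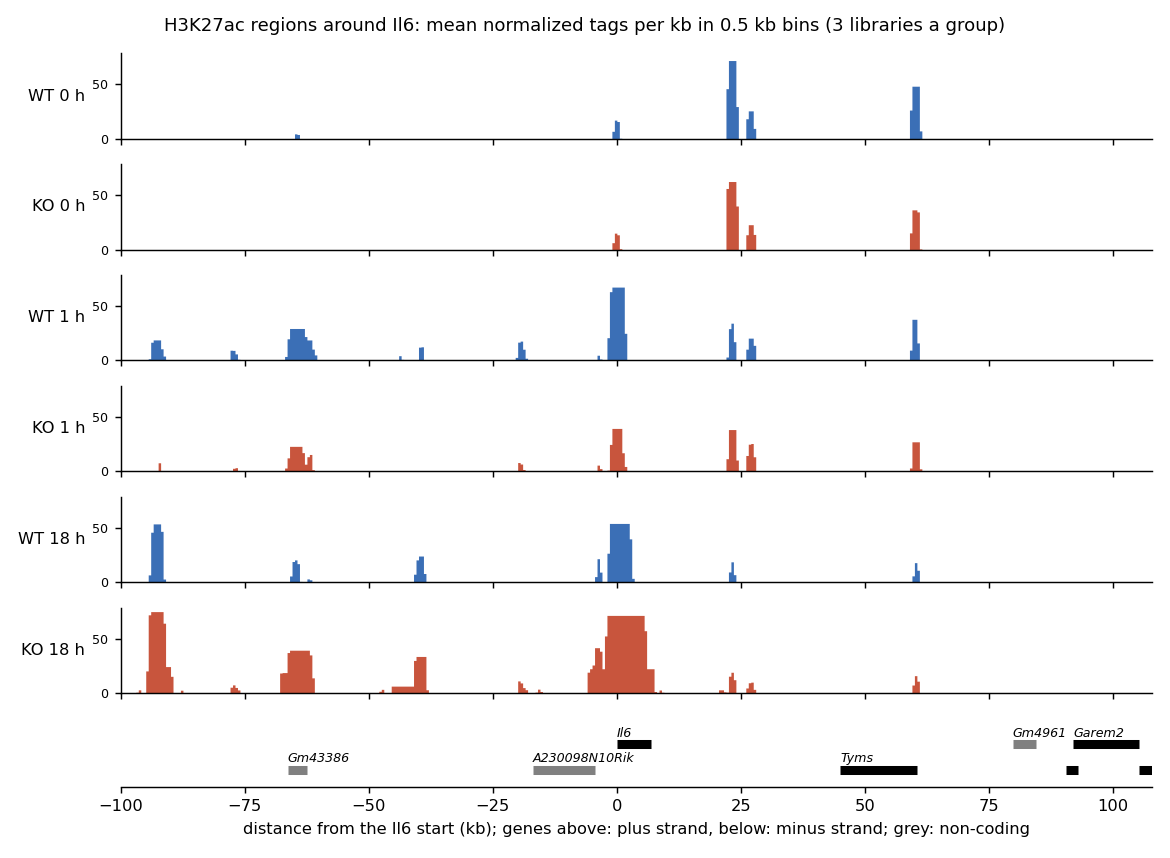
Mean normalized H3K27ac tags per kb of 3 libraries in bins of 0.5 kb along 100 kb on each side of Il6, by distance from the gene start, in 1 row for each genotype and LPS time, with genes drawn below. In KO at 18 h signal is seen at -92.3, -64.4 and -42.0 kb above that in WT, while the region at +23.2 kb is strongest before LPS in both genotypes.

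The -92.3 kb region (chr5:29918196-29923429, intergenic) was the strongest of these distal elements in WT at 18 h. It was listed at 0 in every untreated library. At 1 h it held 50.0, 35.6 and 49.3 tags in WT and 7.56, 0 and 5.26 in KO (4.27 ± 3.88), so KO showed almost no acetylation there. At 18 h it held 132, 126 and 136 tags in WT (131 ± 5.27) and 382, 266 and 244 in KO (297 ± 73.9). The log2 difference KO minus WT was -1.97 at 1 h (SE 0.22, adjusted p = 2.54e-05) and 1.09 at 18 h (SE 0.22, adjusted p = 0.00441), and the change from 1 h to 18 h differed by 3.07 (adjusted p = 5.68e-05). Over the alternatives the 1 h difference ran from -3.59 to -0.81, the latter with a pseudocount of 50, where it was no longer called. The 18 h difference is near the limit for a call, since without replicate 1 of KO at 18 h it was 0.91 (adjusted p = 0.00953) and without any 1 replicate number of all groups it was no longer called, although every KO library lay above every WT library. The sequence with adjacent NBRE and AP-1 motifs printed above comes from the middle of this region.

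A small Pol II region lay inside it, at -92.7 kb (chr5:29919305-29921488). It was listed at 0 in all libraries of 0 h and 1 h, at 7.28, 5.55 and 0 tags in WT at 18 h and at 28.6, 18.9 and 33.3 in KO at 18 h (26.9 ± 7.34). The 18 h difference was 1.39 (SE 0.18, adjusted p = 2.35e-05). Both antibodies thus gave higher values in KO at this element at 18 h.

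The -64.4 kb region (chr5:29945125-29952397, over the gene model Gm43386) followed the time course of Il6 Pol II more closely. In WT it held 119, 136 and 158 tags at 1 h (138 ± 19.5) and fell to 33.9, 35.5 and 32.7 at 18 h (34.0 ± 1.42), a log2 change of -1.74 (adjusted p = 8.43e-05). In KO it held 90.1, 81.1 and 106 tags at 1 h (92.2 ± 12.3) and 387, 154 and 145 at 18 h (228 ± 137). At 18 h the lowest KO library exceeded the highest WT library, and replicate 1 stood far above the other 2 KO libraries. The difference KO minus WT was -0.53 at 1 h (adjusted p = 0.16), which did not pass the test although the groups did not overlap, and 2.29 at 18 h (SE 0.29, adjusted p = 9.22e-05). The 18 h call held under every alternative, with values of 1.62 to 2.56. At the Pol II region inside it (-64.9 kb), WT at 18 h was at 0, 5.41 and 0 tags and KO at 7.23 to 24.7, and it was tested only because it was found in KO.

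The -42.0 kb region (chr5:29967609-29974669, intergenic) was listed at 0 before LPS in all libraries. At 1 h it held 22.9, 7.84 and 14.6 tags in WT (15.1 ± 7.56) and 0 in every KO library, so the groups did not overlap. At 18 h it held 42.2, 42.2 and 41.4 tags in WT (41.9 ± 0.462) and 134, 103 and 99.8 in KO (112 ± 19.0). KO exceeded WT by 1.23 (SE 0.20, adjusted p = 0.00102), with no overlap. Pol II at -39.6 kb, at the edge of this region, was found in the 3 KO libraries of 18 h at 10.3, 13.9 and 7.06 tags and was listed at 0 in all others.

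Closer to the gene, the region at -19.2 kb (chr5:29992973-29994921) was weak. It held 25.0 ± 7.40 tags in WT at 1 h and 0 in WT at 18 h, against 8.23 ± 7.39 and 14.4 ± 10.6 in KO. The groups overlapped at neither time. The difference at 1 h was -1.02 (adjusted p = 0.022), a call that was lost without replicate 2 or 3 of all groups (adjusted p = 0.208 and 0.286). At 18 h it was found in all 3 KO libraries and in no WT library. A Pol II region at -3.8 kb, just upstream of the start of the noncoding gene A230098N10Rik, was found only in KO at 18 h (7.06, 8.07 and 10.4 tags).

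Downstream of Il6 the H3K27ac regions fell with LPS by 18 h, and none was called for genotype. The +23.2 kb region (chr5:30035126-30037490, intergenic) was the strongest H3K27ac region around the gene before LPS, with 153, 148 and 136 tags in WT (146 ± 8.83) and 126, 148 and 152 in KO (142 ± 14.3). In WT it fell at 1 h and further to 17.5 ± 2.19 tags at 18 h, log2 changes of -1.58 (adjusted p = 2.75e-05) and -2.50 (adjusted p = 2.14e-07). In KO it held 42.2, 83.2 and 80.3 tags at 1 h and 37.5, 20.3 and 14.1 at 18 h, and the genotype difference at 1 h was 0.55 (adjusted p = 0.0788). Pol II at +23.1 kb was found only without LPS, at 7.71 to 13.6 tags in WT and 11.2 to 13.2 in KO. The same held for Pol II at +26.8 kb, with 15.1 to 16.9 tags in WT and 11.4 to 14.1 in KO. In KO at 18 h, H3K27ac at +23.2 kb lay below 0 h by 2.22 (adjusted p = 7.47e-07). Before LPS, acetylated chromatin around Il6 thus lay mostly downstream of the gene, and at 18 h mostly upstream of it.

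Over the whole locus, this exchange showed in the LPS comparisons. From 0 h to 1 h in WT, 4 of 8 tested H3K27ac regions outside the window rose and 1 fell (14.9% and 25.9% of all regions). From 0 h to 18 h, 3 of 6 rose and 3 fell in WT (13.5% and 25.5%), and 4 of 8 rose and 3 fell in KO (13.7% and 26.4%). The rising regions were all upstream of Il6 and the falling ones all downstream. Several of them were listed at 0 in 1 of the groups compared, and these counts describe the locus without supporting a direction. For Pol II, 3 of 6 tested regions were called higher in KO at 18 h (3.68% of all regions), at -92.7, -64.9 and -39.6 kb, but none of them was found in every library compared, and the latter 2 were tested only through KO. At 1 h, 1 of 4 was lower in KO (1.98%), at +44.8 kb in Tyms, where every KO library was at 0. Before LPS 2 of 10 were lower (1.13%), at +50.1 and +55.8 kb in Tyms. Of these, the +55.8 kb region was found in all 6 libraries and differed by -1.15 when only such regions were tested (adjusted p = 0.00105). The +59.8 kb region at the Tyms start held 52.3 ± 1.21 Pol II tags in WT and 44.6 ± 3.30 in KO before LPS (-0.19, adjusted p = 0.586) and 15.4 ± 5.35 and 13.8 ± 3.29 at 1 h. The +105.2 kb region over Garem2 and Hadha held 17.0 ± 9.06 and 17.7 ± 6.92 tags before LPS and 14.7 ± 2.24 and 8.05 ± 7.86 at 18 h, with overlapping groups at both times, and at 1 h it was found in 2 of 3 WT libraries and in no KO library.

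**Figure D3:**
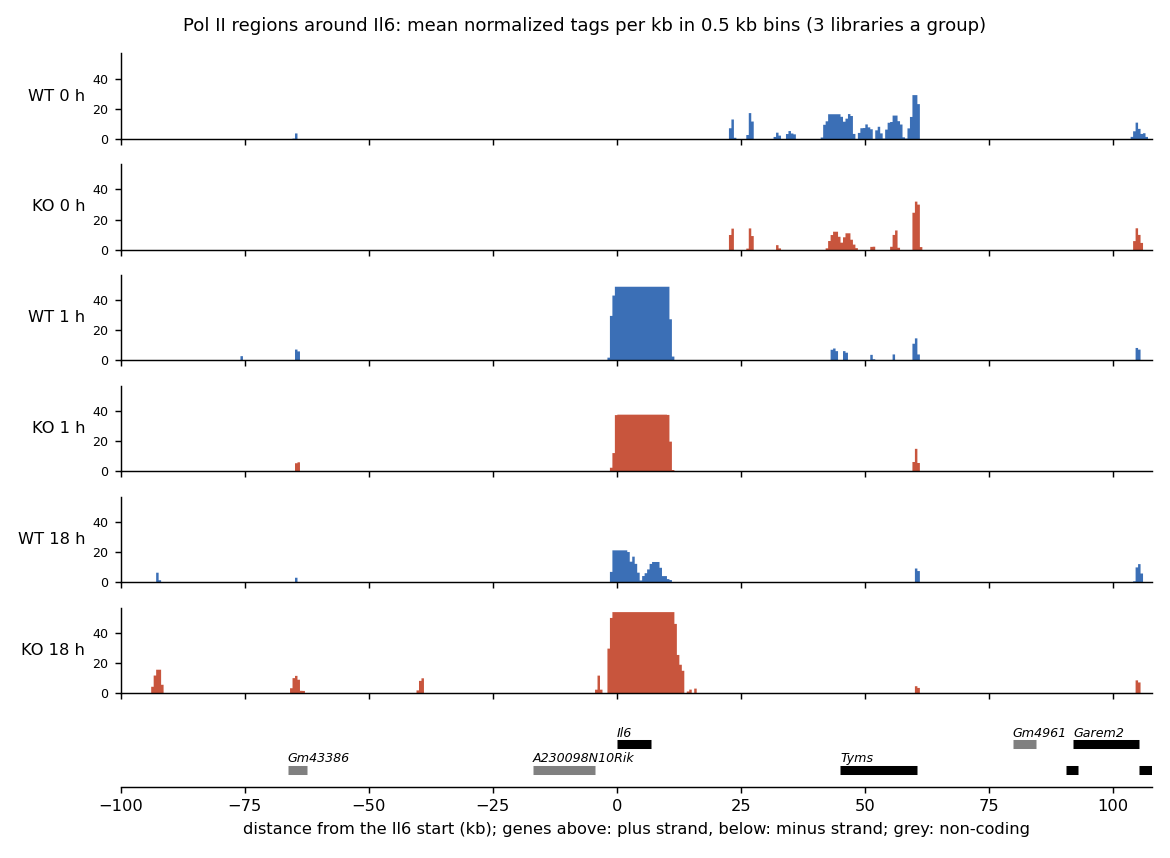
Mean normalized Pol II tags per kb of 3 libraries in bins of 0.5 kb along 100 kb on each side of Il6, by distance from the gene start, in 1 row for each genotype and LPS time, with genes drawn below. Signal over Il6 is seen after LPS only and is highest in KO at 18 h, and signal over Tyms, from the +44.8 kb to the +59.8 kb region, is highest in untreated WT.

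Summed over everything within 100 kb that lay outside the windows of protein-coding genes, H3K27ac was highest in KO at 18 h. H3K27ac totals were 190 ± 8.25, 314 ± 27.4 and 264 ± 8.92 tags in WT at 0, 1 and 18 h, and 179 ± 13.6, 220 ± 18.5 and 1097 ± 446 in KO. The KO total at 18 h ranged from 790 to 1609 tags, and the lowest of these was above every WT library. Regions were called in each library separately, and the length they covered moved with the totals, from 8.14 kb in WT to 24.9 kb in KO at 18 h, while the density was 32.8 and 44.4 tags per kb.

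The totals include the parts of the Il6 domain that reach beyond its windows, so they are given with no test. When regions that touch a window were left out, which was decided after seeing the data, the H3K27ac total at 18 h was 243 ± 4.62 tags in WT and 744 ± 262 in KO, where it ranged from 553 to 1043. For these totals an exact permutation test over the libraries within time gave a two-sided adjusted p of 0.123 over 6 tests for the genotype averaged over the times (132 tags higher in KO). With 3 libraries a group, the smallest p for 1 time alone is 0.1. Permuting LPS within genotype, H3K27ac averaged over the genotypes was higher by 82.7 tags at 1 h and by 309 at 18 h than at 0 h (exact adjusted p = 0.01 for each). Most of the rise at 18 h lay in KO, from 179 ± 13.6 tags at 0 h to 744 ± 262, while WT went from 190 ± 8.25 to 243 ± 4.62. The difference at 1 h depended on the choices made, since with the Il6 domain kept in the total it was 9.94 after input subtraction and -62.8 within 50 kb. The Pol II totals depended on these regions. With them, Pol II outside gene windows was 47.3 ± 9.72 tags in WT and 412 ± 30.3 in KO at 18 h, and without them 8.02 ± 7.03 and 70.8 ± 12.1. At the earlier times the totals without them were lower in KO, at 49.7 ± 1.47 tags against 87.3 ± 8.86 in WT at 0 h and 6.02 ± 5.26 against 19.9 ± 17.4 at 1 h. The highest Pol II total without them was thus that of untreated WT, and the genotype difference averaged over the times was 3.80 tags (exact permutation adjusted p = 0.757). Averaged over the genotypes and without these regions, Pol II fell by 55.5 tags from 0 h to 1 h (exact adjusted p = 0.01).

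**Figure D4:**
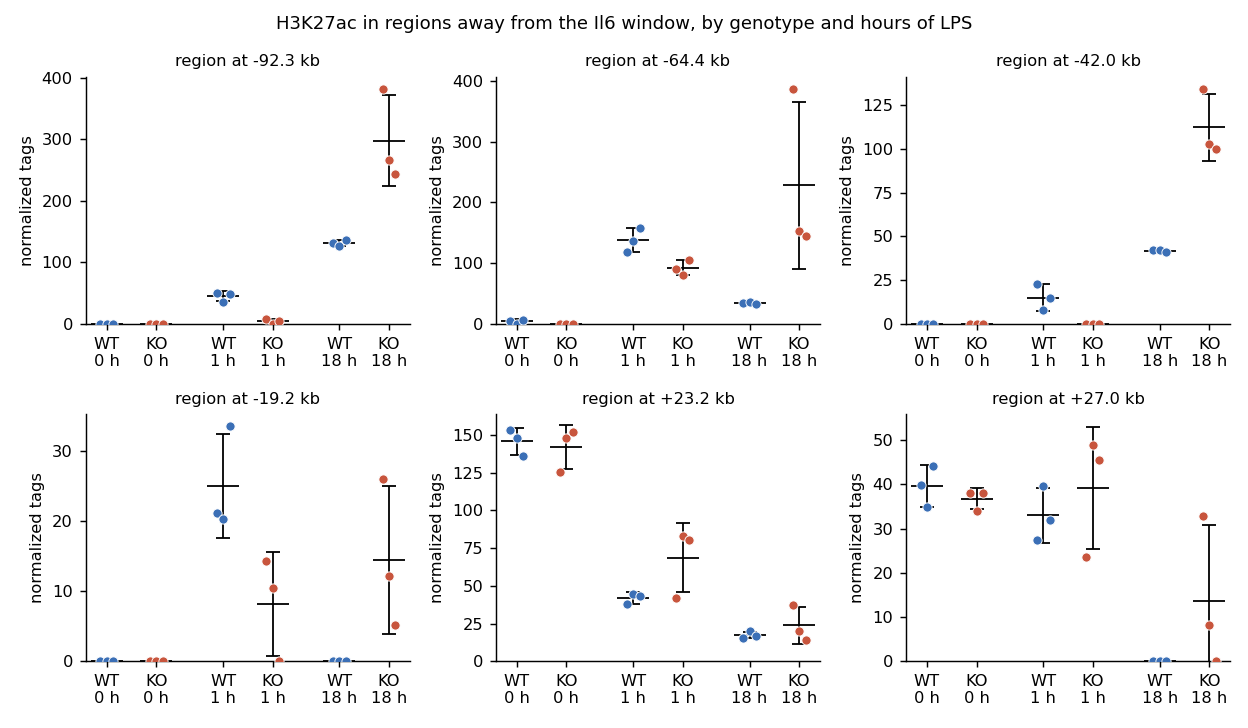
Normalized H3K27ac tags in 6 regions around Il6 for WT (blue) and KO (red) at 0, 1 and 18 h of LPS. Points are single libraries, horizontal lines the mean and error bars the SD of 3. At -92.3, -64.4 and -42.0 kb every KO library of 18 h lies above every WT library of 18 h, and at +23.2 kb both genotypes are highest before LPS.

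The neighbouring genes did not follow Il6. Tyms, which encodes thymidylate synthase of DNA synthesis and lies downstream, held 170 ± 19.4 Pol II tags in WT and 86.6 ± 6.64 in KO before LPS (log2 difference -0.89, SE 0.21, adjusted p = 0.0135). This was one of the 2.73% of genes called lower in KO at 0 h, and the call was lost in 3 of 12 alternatives. LPS lowered Tyms in WT by 2.34 at 1 h and by 3.28 at 18 h on the log2 scale (adjusted p = 1.16e-08 and 2.44e-10). At 1 h Tyms was at 32.2, 31.5 and 15.5 tags in WT and 16.8, 14.4 and 10.3 in KO (-0.58, adjusted p = 0.0316, a call lost in 3 of 12 alternatives), and at 18 h the difference was -0.41 (adjusted p = 0.18). Garem2, further downstream, held 10.7, 13.6 and 0 Pol II tags in WT at 1 h and 0 in every KO library, so it could be tested there only because it was found in WT, and it was not called at 0 h or 18 h. Hadha, a gene of mitochondrial fatty acid oxidation that overlaps the end of the 100 kb flank, was higher in KO at 1 h by 0.61 (adjusted p = 0.0494), a call that was lost in 9 of 12 alternatives (adjusted p up to 0.333). None of these genes was called for genotype with H3K27ac at any time, and 3110082J24Rik was listed at 0.

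Genes of the IL-6 pathway were set beside Il6. Of 43 listed genes, Il6 left out, 39 could be tested with Pol II at 1 h, where 12 were higher and 8 lower in KO (38.2% and 7.49% of all genes), with a median log2 difference of 0.02 against 0.24 over all genes. At 18 h, 6 of 37 were higher and 6 lower (7.58% and 13.5%), and at 0 h 2 of 38 were higher and 3 lower (4.23% and 2.73%). In WT, 28 of 40 rose and 9 fell from 0 h to 1 h (18.6% and 68.4% of all genes), with a median of 1.00 against -0.82, and 25 of 38 rose and 8 fell by 18 h (33.3% each).

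Both chains of the IL-6 receptor differed from Il6 in direction. Of 11742 genes tested at both times, 573 (4.88%) were called higher in KO at 1 h and lower at 18 h, these 2 genes among them. The reverse pattern was called in 120 (1.02%). The receptor chains thus went in the direction of the median of all genes, which was 0.24 at 1 h and -0.10 at 18 h. Of the receptor genes of the list, 4 of 4 tested were higher in KO at 1 h (38.2% of all genes were), and 2 of 4 were lower and 0 higher at 18 h (13.5% and 7.58%; at an unadjusted p under 0.05 the limma test gave 1 higher). Il6ra, which encodes the ligand-binding IL-6 receptor chain, held 48.9, 29.8 and 25.4 Pol II tags in WT and 56.3, 59.9 and 50.0 in KO at 1 h (log2 difference 0.58, adjusted p = 0.0037), and 603, 626 and 623 in WT and 402, 411 and 337 in KO at 18 h (-0.68, adjusted p = 0.00246). The call was lost in 2 of 12 alternatives at 1 h (limma adjusted p up to 0.116) and in 1 of 12 at 18 h (up to 0.0545). In WT, Il6ra fell from 454 tags at 0 h to 34.7 at 1 h (log2 change -3.41, adjusted p = 3.19e-13) and was at 617 tags by 18 h. Il6st, which encodes gp130, was likewise higher in KO at 1 h by 0.67 (adjusted p = 7.88e-06) and lower at 18 h by 0.55 (a log2 difference of -0.55, adjusted p = 9.71e-05). Il27ra, the receptor chain for IL-27, was higher in KO at 1 h by 0.75 (adjusted p = 0.00358).

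Among the signal carriers, Stat3, the transcription factor that IL-6 activates, moved as Il6 did. It held 815, 725 and 756 Pol II tags in WT and 548, 508 and 520 in KO at 1 h (log2 difference -0.53, adjusted p = 0.000231), and 1609, 1553 and 1606 in WT and 2264, 2203 and 2282 in KO at 18 h (0.50, adjusted p = 0.000798). Neither pair of groups overlapped. Unlike Il6, Stat3 was higher at 18 h than at 1 h in WT as well. Jak2, a kinase bound to the receptor, was among the genes that rose most in WT (log2 5.18 at 1 h, adjusted p = 1.96e-19) and was higher in KO at 18 h by 0.55 (adjusted p = 2.47e-05). Gab1, an adaptor protein, was higher in KO at 1 h by 1.83 (adjusted p = 6.89e-06), and the phosphatase gene Ptpn11 was higher at 1 h (0.76, adjusted p = 0.000334) and lower at 18 h (-0.45, adjusted p = 0.0252).

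Of the inhibitors, Socs3, which blocks signalling through gp130, rose in WT from 23.4 to 2997 tags at 1 h (log2 6.51, adjusted p = 1.04e-17) and was lower in KO at 1 h by 0.38 (difference -0.38, adjusted p = 0.0243, lost in 3 of 12 alternatives), and the value at 18 h was -0.30 (adjusted p = 0.11). Cish and the ligand genes Clcf1 and Lif were among those that rose most in WT at 1 h (log2 4.77, 5.01 and 4.86). Clcf1 held a mean of 9.52 tags in KO before LPS and was listed at 0 in WT, so it was tested only because it was found in KO. Irf1 and Socs1 were lower in KO before LPS (-0.60, adjusted p = 0.000123, and -0.37, adjusted p = 0.0379). By 18 h in WT, Socs3 (4.91), Jak2 (4.22), Socs1 (2.78), Stat3 (2.52) and Arid5a (2.52), which encodes a protein that stabilizes Il6 mRNA, were the listed genes that had risen most. Of the promoter factors, Nfkb1, which encodes the p50 subunit of NF-kB, was higher in KO at 18 h by 0.74 (adjusted p = 1.15e-05), and Fos, a subunit of AP-1, was lower (-0.47, adjusted p = 0.00677).

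**Figure D5:**
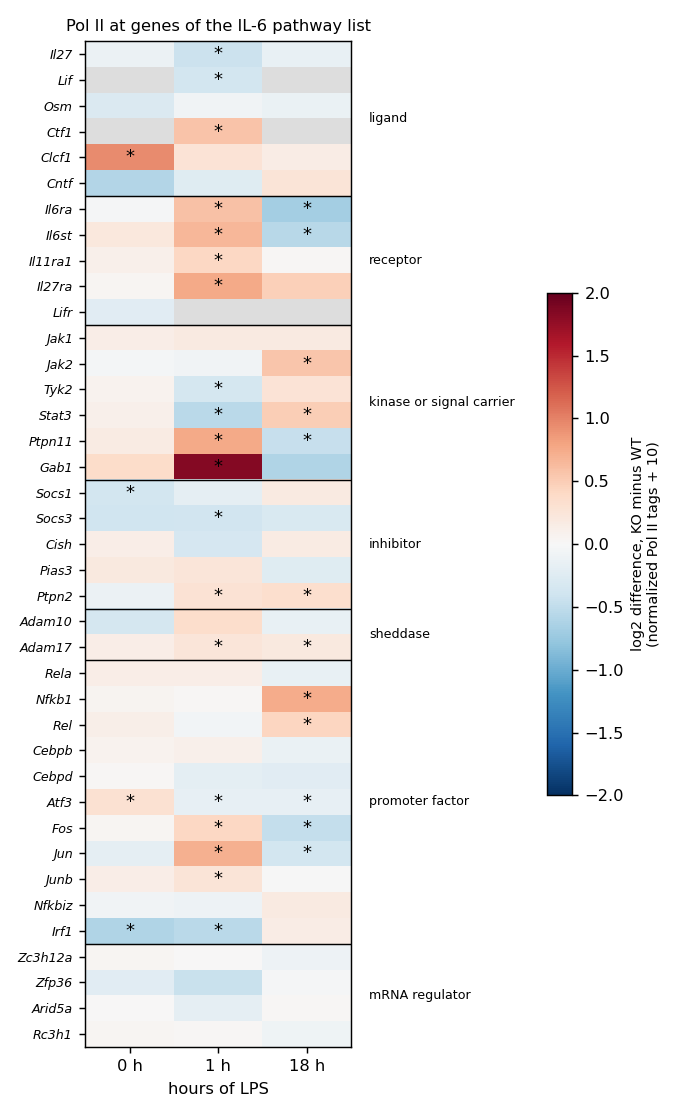
Log2 difference in Pol II, KO minus WT, for genes of the IL-6 pathway (rows, grouped by role) at 0, 1 and 18 h of LPS, on the log2(normalized tags + 10) scale, with red higher and blue lower in KO, grey not tested and an asterisk for an adjusted p under 0.05. Il6ra (0.58 at 1 h and -0.68 at 18 h) and Il6st (0.67 and -0.55) turn from higher to lower in KO, and Stat3 (-0.53 and 0.50) from lower to higher.

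With H3K27ac the counts over the pathway were small or unstable. At 0 h, 0 of 38 genes were called in the limma test (6 at an unadjusted p under 0.05; 0.77% of all genes called), and at 18 h 1 of 36 was, Nfkb1, which was lower in KO (-0.84, adjusted p = 0.0029, 2.29% of all genes lower). No gene of the list was called at 18 h without replicate 2 or without replicate 3 of all groups. At 1 h, 5 of 39 were higher and 8 lower in KO (11.1% and 7.41% of all genes), but 22 were called without replicate 1 of KO at 1 h and 0 without replicate 2 or 3 of all groups. At 1 h, H3K27ac was lower in KO at Cish (-1.24, adjusted p = 0.00896), Clcf1 (-1.04, adjusted p = 0.0291) and Socs3 (-0.71, adjusted p = 0.000658) and higher at Il6ra (0.60, adjusted p = 0.0168). These 4 gene values carry the same limit. In WT, 26 of 38 genes rose and 5 fell from 0 h to 1 h (25.3% and 29.3%), and 20 of 37 rose and 4 fell by 18 h (23.5% and 26.4%).

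Other cytokine genes of the LPS response shared only part of the Il6 pattern in Pol II. Tnf, which unlike Il6 carried Pol II before LPS, held 12596 ± 481 tags in WT and 9750 ± 1352 in KO at 1 h (log2 difference -0.38, adjusted p = 0.00434) and 2610 ± 59.8 and 3189 ± 397 at 18 h (0.28, adjusted p = 0.0444). The size of its difference at 18 h was thus far below the 1.85 of Il6, and the call was lost in 6 of 12 alternatives. Il1b did not pass the test at 1 h (-0.21, adjusted p = 0.178) and was higher in KO at 18 h by 0.76 (adjusted p = 0.000322). Il12b was lower in KO at 1 h, at 4212 tags in WT and 2303 in KO (-0.87, adjusted p = 3.53e-06), and was listed at 0 in every library of 18 h in both genotypes. The test of whether the 1 h to 18 h change differed gave 0.66 for Tnf (adjusted p = 0.00125) and 0.97 for Il1b (adjusted p = 0.000546), both toward KO, as in 6.79% of all genes. For Il12b, at 0 at 18 h, it could only repeat the difference at 1 h.

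The genes whose Pol II tags were most like those of Il6 over the 18 libraries were Tnfrsf8 (Pearson r = 0.998, among 13674 genes), which encodes the receptor CD30, Trim43c (0.990), Il15 (0.989), Gbp7 (0.988) and G530012D18Rik (0.988). Gbp7, an interferon-inducible GTPase gene, had group means of 33.9, 5306 and 1147 tags in WT at 0, 1 and 18 h and 21.7, 3008 and 3454 in KO. As at Il6, KO was lower than WT at 1 h and higher at 18 h. Tnfrsf8 differed from Il6 at 1 h, when WT (5904) and KO (5898) had nearly the same mean, and it resembled Il6 at 18 h, with 2672 tags in WT and 7003 in KO. With H3K27ac the closest genes among 12281 were Selenow (0.992), Inpp5b (0.988), Traf2 (0.986), Lgals9 (0.985) and Helz2 (0.984). The libraries share their depth and their LPS response, and these values describe likeness only.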

How the data were processed

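For all 42 libraries the authors aligned Skewer-trimmed reads to mm10 with HISAT2 2.1.0. Duplicates were removed in HOMER tag directories, and HOMER's broad setting called regions library by library. Per the file headers, a region is called from 500 bp windows stitched over 1000 bp at a Poisson p of 0.001. The signal used is the deposited normalized tag count of each region, which is scaled to 10 M tags per library. The other columns deposited by the authors (region sizes, ratios to local background and each region score) were not used as measurements. The antibody number for Pol II differs between the labels and the methods.

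Overlapping regions from the 18 libraries of each antibody were joined into merged regions, and tags of a region partly inside a window were shared out by the overlapping length. On the log2(normalized tags + 10) scale, group differences were estimated by limma 3.58.1 (R 4.3.3, intensity trend, 6 groups of 3, no covariates), with Benjamini-Hochberg adjustment over all genes or regions tested. Features seen in fewer than 2 of 3 libraries in both groups of a comparison were not tested. Totals were compared by exact permutation tests. Because region calling sets weak signal to 0, a log2 difference against a group at 0 depends on the pseudocount and is no bound. The code was tested on simulated data.

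The members, lists, motifs and tests were chosen with earlier results of these data known. Named were Il6, its neighbours, the 5 strongest further regions per antibody, Il6ra, Il6st, Stat3 and Socs3, per comparison the 4 called pathway genes with the largest changes, the 5 genes most like Il6, Tnf, Il1b, Il12b and Nr4a1. Of the pathway list, 1 gene is kept in the counts and is otherwise not reported here. Libraries with the same replicate number did not deviate together (correlations of -0.11 to 0.11). Alternatives changed the pseudocount, scaling, window, sharing of regions, density floor, input, filters, trend and replicates. The 6 inputs held 25.6 to 45.3 M tags. Gene models are GENCODE vM21. Figures were drawn with matplotlib 3.10.9 in Python 3.11.15.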

Additional observations from a re-analysis of the deposited data

Results flagged for a closer look

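Il6 itself was singled out because every KO library was higher and every WT library lower at 18 h than at 1 h in Pol II, a difference between the genotypes of 2.22 on the log2 scale that was not tested.

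In other features the change from 1 h to 18 h differed between KO and WT in the limma interaction test, and positive values mean a change toward KO. For Pol II regions it was 1.39 at -92.7 kb, 1.02 at -39.6 kb, 0.88 at -3.8 kb and 1.42 at +44.8 kb, in Tyms, where signal at 1 h was found in WT and not in KO. For H3K27ac regions it was 3.07 at -92.3 kb, 2.82 at -64.4 kb, 2.51 at -42.0 kb and 2.22 at -19.2 kb. Several of these values were fixed in part by groups at 0. The Pol II region at -92.7 kb was at 0 in all libraries of 1 h, so its value repeats the 18 h difference, and those at -39.6 and -3.8 kb were found in KO at 18 h only and that at +44.8 kb, among these times, in WT at 1 h only. The H3K27ac region at -42.0 kb was at 0 in KO at 1 h and that at -19.2 kb in WT at 18 h. The values of these 6 regions give no support for a changed course. For Pol II at genes it was -1.26 at Il6ra, -1.22 at Il6st, 1.03 at Stat3, 0.66 at Tnf, 0.97 at Il1b and 0.87 at Il12b, which was at 0 in all libraries of 18 h, so that this value repeats its 1 h difference. For H3K27ac at gene starts it was -0.80 at Il6ra (adjusted p = 0.0375), 0.63 at Socs3 (adjusted p = 0.0168) and 1.87 at Il12b (adjusted p = 0.0253), where every WT library of 18 h was at 0, and each of these 3 calls was lost in 2 of the fits without some replicate.

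The input libraries, which enter none of the tests above, carried tags over Il6. The highest of the 6 held 52.5 normalized tags in the Pol II window and 53.3 in the H3K27ac window, above the 0.662 to 1.17 tags that a count of 3 would give.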

How the results depend on the processing

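The direction of the Il6 differences held under every alternative except for H3K27ac before LPS, where subtraction of the input gave 0.33. Values run in the order pseudocount 1, pseudocount 50, median centring, quantile normalization, whole regions, narrow window and input subtraction, with those that moved by less than the replicate spread left out. For Il6 Pol II, KO minus WT at 1 h was -0.63 (centring), -0.44 (quantile), -0.44 (whole regions) and -0.28 (input). At 18 h it was 1.93, 1.56, 1.97, 1.94, 2.28, 1.02 and 2.66. The WT change from 1 h to 18 h was -1.80, -1.45, -2.60, -2.26, -1.92, -0.91 and -2.36. The KO change was 0.0024 (centring), 0.12 (quantile), 0.80 (whole regions), 0.42 (narrow) and 0.58 (input). The difference of these changes was 2.31, 1.89, 2.60, 2.38, 2.72, 1.34 and 2.94. For Il6 H3K27ac, KO minus WT was -0.72 at 1 h (narrow) and, at 18 h, 1.42 (whole regions) and 0.94 (input). Relative to 0 h, WT at 1 h was 3.41, 1.96, 2.26 and 4.17 and at 18 h 3.45, 1.99, 1.97 and 4.22 (pseudocounts, narrow, input). KO at 1 h was 2.36, 1.12, 1.65 and 2.55 and at 18 h 4.20, 2.54, 4.64, 2.45 and 4.82 (pseudocounts, whole regions in the latter, narrow, input). The genotype difference in the 1 h to 18 h change was 1.39 (pseudocount 50), 2.55 (whole regions), 1.09 (narrow) and 2.22 (input).

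Without 1 replicate, the Il6 Pol II differences ranged from -0.44 to -0.31 (1 h), 1.76 to 1.94 (18 h), -1.77 to -1.69 (WT change), 0.48 to 0.52 (KO change) and 2.19 to 2.25 (difference of changes). For Il6 H3K27ac they ranged from -0.19 to -0.0088 (0 h), -1.49 to -0.95 (1 h) and 0.47 to 0.64 (18 h), from 2.90 to 3.02 and 2.93 to 3.02 (WT at 1 h and 18 h), from 1.59 to 2.15 and 3.49 to 3.78 (KO) and from 1.44 to 2.11 (difference of changes). With the replicate number as a block, the Il6 Pol II difference at 18 h was again 1.85, and no Il6 value moved.

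The distal Pol II total at 1 h was 0 above 0 h after input subtraction and -55.5 without regions that touch an Il6 window, where the 18 h value was -29.0. The distal H3K27ac total relative to 0 h was 9.94 at 1 h and 502 at 18 h after input subtraction, and -62.8 and 146 within 50 kb, which leaves out the regions at -92.3, -77.1 and -64.4 kb. Without 1 replicate these totals ranged from 73.4 to 87.5 (Pol II, genotype), 109 to 126 (1 h), 154 to 172 (18 h), 160 to 293 (H3K27ac, genotype), 73.7 to 92.8 (1 h) and 369 to 577 (18 h). With so few libraries the permutation tests of LPS could not pass 0.05. Those of the genotype could and did not, and no conclusion is drawn from them, since these totals hold parts of the Il6 domain.

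Called pathway genes numbered 8 (Pol II, 0 h), 1 (H3K27ac, 0 h) and 2 (H3K27ac, 18 h) under quantile normalization. Without 1 replicate they ranged, for KO minus WT at 0, 1 and 18 h, from 3 to 5, 13 to 20 and 8 to 10 with Pol II and 0 to 2, 0 to 28 and 0 to 6 with H3K27ac, and for WT at 1 h and 18 h from 36 to 37 and 29 to 31 with Pol II and 23 to 34 and 18 to 27 with H3K27ac. Called Pol II regions around Il6 numbered, at 1 h, 0 (pseudocount 50), 2 (centring), 2 (quantile) and 0 (found in every library), and at 18 h 0, 1 (quantile) and 0. Called H3K27ac regions numbered 0 at 1 h (pseudocount 50, found in every library) and 1 at 18 h (pseudocount 50). Without 1 replicate these counts ranged from 1 to 2 and 1 to 2 (Pol II) and 1 to 4 and 2 to 4 (H3K27ac). The cause of these shifts was not tested. Hadha Pol II in WT at 1 h was 0.12 above 0 h under quantile normalization, against -0.88. Regions of few tags sit near the detection limit, so a value of 0 there means not detected at this depth.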
